A study of Tupaia belangeri with 6 samples.

Results

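The transcripts described here are the amyloid precursor protein gene and the genes for the secretases that cut its product. Members were chosen by symbol. Every row of the 6 count matrices named APP, ADAM10, BACE1, BACE2, PSEN2, NCSTN, APH1A, APH1B or PSENEN was taken, which gave 9 of 83605 features, each found once per matrix. Single-nucleus RNA sequencing (snRNA-seq) was run on flash-frozen hippocampus of the tree shrew (Tupaia belangeri, TS). The ALP group holds 3 TSs with Alzheimer's-like pathology that arose with natural aging and were picked by their performance in a pipeline maze, and the control group holds 3 TSs of matched age. No transgene, allele or treatment separates the groups. Sex, a covariate in the paper's own model, is not given per library in the labels, so it was not a term here. Each library is a separate sample in the labels, which do not name the animal, so p-values of ALP against control measure the spread between samples. The counts come from nuclei, so cytoplasmic transcripts are under-represented, to an extent that was not measured.

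APP is a single-pass membrane protein. ADAM10, the main alpha-secretase in neurons, cuts it within the amyloid-beta stretch and precludes release of that peptide, whereas BACE1, the beta-secretase, cuts at the start of that stretch. Gamma-secretase, a membrane complex of a presenilin, nicastrin (NCSTN), an APH1 protein and PEN-2 (PSENEN), then cuts the remaining stub within the membrane. All of these enzymes also cut many other membrane proteins, Notch receptors and neuregulins among them.

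After the gene and mitochondrial filters, 28233 nuclei remained, 14387 from controls and 13846 from ALP TSs, with a median of 1502.5 to 2187.5 UMIs per nucleus in a library. Control 2 stood apart, with 1614 nuclei kept and 46.4% of its barcodes at or above the limit of 2500 genes, against 16.0% to 27.7% in the other libraries. Nuclei were clustered without the members and named from marker genes. The 11 named classes resembled oligodendrocytes (Oligo-like, 8772 nuclei), astrocytes (Astro-like, 3069), dentate granule neurons (Gran-like, 2744), oligodendrocyte precursors (OPC-like, 2559), interneurons (InN-like, 2341), other excitatory neurons (ExN-like, 1392), microglia (Micro-like, 1362), pyramidal neurons (Pyra-like, 1019), endothelium (Endo-like, 424), vascular mural cells and fibroblasts (Mural-like, 199) and ciliated ependyma (Ependymal-like, 178). A further 2600 nuclei of low depth stayed unnamed, 1958 from controls and 642 from ALP TSs. So did 885 nuclei in clusters with many marked doublets and 689 in clusters with under 3 markers. In Oligo-like nuclei the marker MBP stood at 0.438 CPM, whereas their other detected markers were at their highest there. The Endo-like cluster also carried mural markers. RGS5 stood at 1255 CPM there against 439 in Mural-like nuclei, and NOTCH3 at 132 against 104, whereas PDGFRB, DCN and COL1A2 were highest in Mural-like nuclei. Endo-like levels below may therefore include mural transcripts, whose part was not tested. Transcripts of 38 ribosomal protein genes summed to 7542 ± 1016 CPM in control and 10746 ± 3500 in ALP Endo-like nuclei (SD, n = 3 each). In Ependymal-like nuclei, the next class, they summed to 2027 ± 884 and 1775 ± 500 CPM. The part of such transcripts in the Endo-like levels of the members was not tested. Several classes were spread differently over clusters in the groups: cluster 1 held 54.5% of control but 3.71% of ALP Oligo-like nuclei, and the largest share of ExN-like nuclei lay in cluster 14 in controls (53.6%) and in cluster 16 in ALP TSs (43.3%). Cluster 4 held 53.6% of control and 72.6% of ALP Astro-like nuclei, and cluster 25 held 8.42% of control and 18.2% of ALP Micro-like nuclei.

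Levels are on the standard CPM scale, which sets the UMIs of a gene against all UMIs of the same class and library, and are given as mean ± SD over the 6 libraries. APP had 30812 UMIs in the kept nuclei and ADAM10 had 9551. The other members were sparse, with 1287 for PSENEN, 1092 for APH1B, 867 for BACE1, 629 for APH1A, 614 for NCSTN, 499 for BACE2 and 385 for PSEN2. Lengths of the transcript models were not used, so levels are compared between classes for each gene and never between genes.

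Each class was set against the mean of the other classes with edgeR's quasi-likelihood test and the library as a block, and a gene was called at a Benjamini-Hochberg adjusted p under 0.05 and a log2 difference beyond 0.25. The block takes out differences between libraries, so these p-values measure the spread of class sums within libraries, pooled over classes. They do not measure the spread between samples. Of 88 contrasts of 8 members (PSEN2 fell under the filter on low counts), 22 were called higher and 15 lower. Calls were frequent among all 13751 genes tested. The called share was 59.8% in Oligo-like, 53.1% in Pyra-like, 52.4% in InN-like, 50.3% in Gran-like, 47.9% in Astro-like and 46.1% in ExN-like nuclei. It was 43.0% in OPC-like, 40.0% in Endo-like, 34.5% in Micro-like, 31.3% in Ependymal-like and 19.4% in Mural-like nuclei. A called difference was therefore common for any gene, and the size and place of the differences are what the members' values add.

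APP had its highest mean in Oligo-like nuclei. Control libraries 1 to 3 stood at 938, 916 and 693 CPM there and ALP libraries 1 to 3 at 631, 906 and 719 CPM. The mean was 800 ± 134 CPM (SD, n = 6), with a log2 difference from the other classes of 1.36 (SE 0.09, adjusted p = 3.06e-23 in edgeR). Oligo-like nuclei carried 30.3% ± 9.77 of all APP UMIs of a library and InN-like nuclei 18.6% ± 8.24. The next levels were 605 ± 127 CPM in Endo-like, 523 ± 32.4 in Micro-like and 497 ± 47.2 in InN-like nuclei. Oligo-like nuclei were above Endo-like nuclei in 5 of 6 libraries, but in ALP 1 Endo-like nuclei were higher, at 784 against 631 CPM. ExN-like (471 ± 82.8), Gran-like (455 ± 51.1) and Pyra-like nuclei (380 ± 76.0) formed the middle of the order. The lowest levels were in Mural-like (341 ± 149), Ependymal-like (242 ± 65.2), OPC-like (238 ± 33.1) and Astro-like nuclei (193 ± 25.0). OPC-like nuclei, the precursors of the oligodendrocyte lineage, thus lay near the bottom of the order for APP, and in Astro-like nuclei the log2 difference was -0.95 (SE 0.12, adjusted p = 4.17e-11 in edgeR). Of 11 alternative edgeR fits, the call for APP held in 2 in Micro-like (adjusted p up to 0.328) and 4 in Endo-like nuclei (up to 0.336). It held in 8 in Mural-like (up to 0.41) and 10 in Gran-like nuclei (up to 0.229).

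ADAM10 was highest in Micro-like nuclei. It stood at 719, 318 and 558 CPM in control libraries 1 to 3 and at 431, 362 and 455 CPM in ALP libraries 1 to 3. Every library had more ADAM10 in Micro-like than in Oligo-like nuclei (212 ± 38.0 CPM), the next class, and the ratio of the means was 2.23. The log2 difference of Micro-like nuclei from the other classes was 1.71 (SE 0.10, adjusted p = 6.16e-26 in edgeR). Oligo-like nuclei (0.79, SE 0.10) and Astro-like nuclei (173 ± 23.9 CPM, log2 difference 0.43, SE 0.11) were also called higher. ADAM10 stood at 117 ± 13 CPM in InN-like and 111 ± 14.8 in OPC-like nuclei, and at 82.3 ± 20.7 CPM in Pyra-like nuclei, the lowest class, with a log2 difference of -0.61 (SE 0.14, adjusted p = 6.68e-05 in edgeR).

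Within 2 classes ADAM10 was uneven between clusters, a pattern chosen after its values were seen and therefore not tested. Among Micro-like nuclei, cluster 9 (1180 nuclei, led by IKZF1, BLNK and SAMSN1) had 609 ± 159 CPM of ADAM10 and cluster 25 (182 nuclei, led by GPNMB, CLEC6A and CSF2RA) had 228 ± 30 CPM. Cluster 9 was above cluster 25 in 6 of 6 libraries. The clusters also differed in depth, with a median of 960 UMIs per nucleus in cluster 9 and 3659.5 in cluster 25, and in marked doublets, 1.1% against 9.89%. Cluster 25 also met 3 listed markers of granule neurons and 3 of excitatory neurons. The part of depth, doublets and neuronal transcripts in the difference was not tested. Among InN-like nuclei, cluster 17 (led by ST6GALNAC2, LAMP5 and MYO3A) had 205 ± 47.4 CPM of ADAM10, against 91.6 ± 13.7, 88.0 ± 10.3 and 95.2 ± 13.8 in clusters 13 (SST), 15 (CNR1) and 18 (CALCR, VIP). It was above every other InN-like cluster in 6 of 6 libraries, at a median depth of 4622.5 UMIs that lay within the 3380.0 to 5011.0 of the others.

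The beta-secretases differed sharply from each other in place. BACE1 was highest in Oligo-like nuclei in 6 of 6 libraries, at 38.3, 49.8 and 34.3 CPM in controls and at 34.8, 30.2 and 31.1 CPM in ALP TSs. Its mean there (36.4 ± 7.16 CPM) was 3.73 times that of InN-like nuclei (9.76 ± 1.39 CPM), the next named class. Unnamed low-depth nuclei lay between, at 19.4 ± 6.17 CPM from 42 UMIs. The log2 difference of Oligo-like nuclei was 2.64 (SE 0.18, adjusted p = 2.15e-23 in edgeR), and Oligo-like nuclei carried 47.4% ± 11.3 of all BACE1 UMIs of a library. OPC-like nuclei had 4.90 ± 2.66 CPM from 27 UMIs. BACE1 was thus high in the class that was also highest for APP, and Pearson's r between the log2 levels of APP and BACE1 over the 11 class means was 0.681, a description over classes that share libraries.

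BACE2, the close relative of BACE1, was highest in Endo-like nuclei, at 76.6, 78.1 and 92.8 CPM in controls and at 23.8, 105 and 64.3 CPM in ALP TSs, from 60 UMIs in all. ALP 1 had a single BACE2 UMI in its 24 Endo-like nuclei. Mural-like (50.4 ± 18.3), Ependymal-like (32.4 ± 17.1), Astro-like (27.3 ± 8.98) and OPC-like nuclei (17.7 ± 2.48 CPM) followed, and all 5 were called higher than the other classes in edgeR, although the Ependymal-like call held in 7 of 11 alternatives (adjusted p up to 0.0785). The log2 difference was 3.27 in Endo-like (SE 0.33, adjusted p = 1.24e-14) and 2.11 in Astro-like nuclei (SE 0.23, adjusted p = 2.92e-13). Oligo-like nuclei, where BACE1 peaked, had 18 BACE2 UMIs among 12751760, or 0.916 ± 1.33 CPM, with 3 of 6 libraries at 0 and a log2 difference of -2.42 (SE 0.38, adjusted p = 2.9e-08). InN-like nuclei had 9 BACE2 UMIs among 9876915, and Gran-like and Pyra-like nuclei were called lower as well. Astro-like nuclei carried 33.2% ± 10.7 of the BACE2 UMIs of a library.

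**Figure D1:**
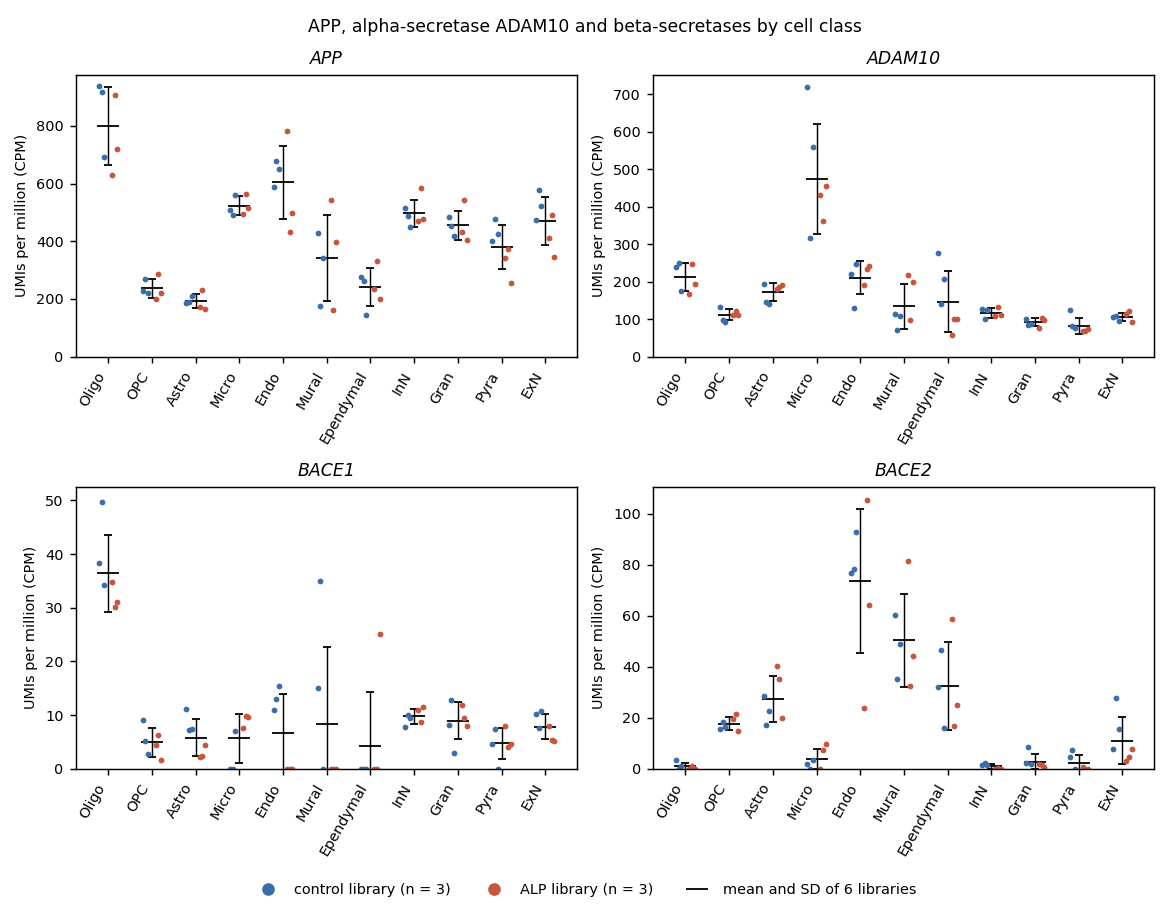
Levels of APP, ADAM10, BACE1 and BACE2 (CPM, linear axis) in each named class, with a point for each control and ALP library and a bar for the mean and SD of the 6 libraries. APP and BACE1 peak in Oligo nuclei (means 800 and 36.4 CPM), ADAM10 in Micro nuclei (474 CPM) and BACE2 in Endo nuclei (73.5 CPM).

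Among the subunits of gamma-secretase, NCSTN, which encodes the large glycoprotein of the complex, was highest in Endo-like nuclei (36.1 ± 22.9 CPM from 32 UMIs), where 5 libraries ranged from 23.2 to 65.1 CPM and ALP 1 was at 0. The log2 difference of Endo-like nuclei was 1.85 (SE 0.33, adjusted p = 2.7e-06 in edgeR), and no other class was called for NCSTN. APH1A, a scaffold subunit, was also highest in Endo-like nuclei (29.7 ± 14.1 CPM from 25 UMIs, log2 difference 1.48, SE 0.34, adjusted p = 0.00022 in edgeR), a call that held in 10 of 11 alternatives (adjusted p up to 0.0968). Astro-like nuclei were called higher for it too, at 14.9 ± 1.67 CPM (log2 difference 0.72, SE 0.21, adjusted p = 0.00331 in edgeR). NCSTN and APH1A had the most similar order of any pair of members (Pearson's r = 0.869 over 11 class means).

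APH1B, the alternative APH1 subunit, had a different order from APH1A (r = -0.66). Its highest mean was in Ependymal-like nuclei (64.5 ± 62.8 CPM), but from 19 UMIs, with 1 library at 0 and ALP 1 at 176 CPM. OPC-like nuclei gave the firmer value, with 37.2, 31.3 and 51.3 CPM in controls and 28.3, 26.4 and 39.7 CPM in ALP TSs, from 183 UMIs. The log2 difference of OPC-like nuclei was 1.38 (SE 0.19, adjusted p = 2.35e-09 in edgeR). Oligo-like nuclei stood at 18.2 ± 3.17 CPM and Endo-like nuclei at 3.57 ± 5.84 CPM from 6 UMIs. APH1B was thus higher in precursors than in oligodendrocyte-like nuclei, the reverse of the order for APP and BACE1.

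PSENEN, the smallest subunit, was highest in Endo-like nuclei (86.8 ± 72.0 CPM from 55 UMIs, log2 difference 1.68, SE 0.27, adjusted p = 2.69e-07 in edgeR). The Endo-like values were 65.7, 26.0 and 38.7 CPM in controls and 95.0, 70.2 and 225 CPM in ALP TSs. Micro-like (25.6 ± 3.44), Astro-like (24.5 ± 9.11), InN-like (20.2 ± 9.36), Oligo-like (20 ± 10.5) and OPC-like nuclei (19.2 ± 6.88 CPM) lay close together. ExN-like nuclei were called lower (15.7 ± 11.4 CPM, log2 difference -0.55, SE 0.23, adjusted p = 0.0426 in edgeR), a call lost in 5 of 11 alternative fits. PSEN2, a presenilin and so a catalytic subunit, was at 12.1 CPM or less in every class, from 1.82 ± 4.47 CPM in Endo-like nuclei (4 UMIs) to 12.1 ± 11.2 CPM in Ependymal-like nuclei (4 UMIs). InN-like nuclei had the most PSEN2 UMIs, 78, at 7.69 ± 2.21 CPM.

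**Figure D2:**
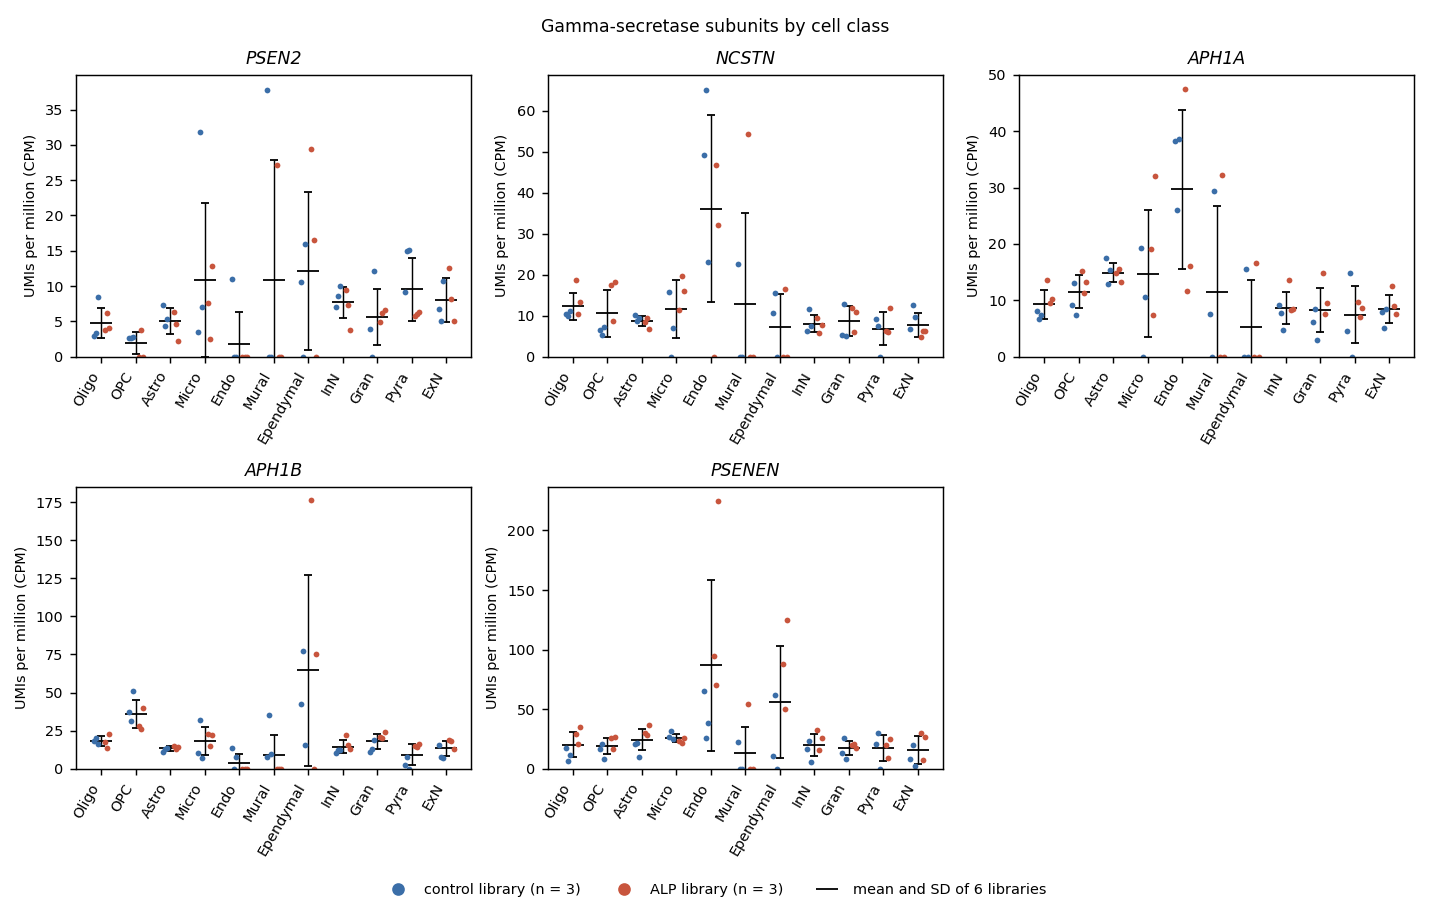
Levels of the 5 gamma-secretase subunits (CPM, linear axes that differ between panels) in each named class, with a point per library and a bar for the mean and SD of the 6 libraries. NCSTN, APH1A and PSENEN have their highest means in Endo nuclei (36.1, 29.7 and 86.8 CPM), whereas APH1B is at 35.7 CPM in OPC nuclei and 3.57 CPM in Endo nuclei.

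Neighbors in these orders were mostly not separable. An exact paired sign-flip test of log2(CPM + 1) over the 6 libraries was run on 90 neighboring pairs, where the smallest possible two-sided p is 0.0312. The exact p reached 0.0312 in 4 pairs: OPC-like above Astro-like for APP, Oligo-like above InN-like for BACE1, Micro-like above Oligo-like for ADAM10 and Oligo-like above OPC-like for PSEN2. None passed after adjustment over the 90 pairs (lowest adjusted exact p = 0.592), a threshold that 4 pairs at the smallest p could not reach.

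By the class means, the genes with the pattern most like that of APP were SLC6A6 (r = 0.956), NOP58 (0.906) and MYO1D (0.896), all highest in Oligo-like nuclei. For ADAM10 they were CTSD (0.952), ARPIN (0.951) and PRKACA (0.945), highest in Micro-like nuclei. For PSENEN they were CD34 (0.979), MICOS13 (0.978) and BCL10 (0.969), highest in Endo-like nuclei, and for APH1B they were POLR3B (0.919), ZFP3 (0.91) and DNAH1 (0.898), highest in Ependymal-like nuclei. Each is Pearson's r of log2(CPM + 1) over 11 class means among 10494 symbol-named genes, given as a description.

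ALP and control TSs were then compared within each class, on UMIs summed per library, by edgeR's quasi-likelihood test with adjustment over all genes of the class. No member was called in any class at adjusted p under 0.05 and a log2 fold change beyond 0.25. Of 99 pairs of a member and a class, 47 had counts enough to test, 4 of them had an unadjusted p under 0.05, and the lowest adjusted p was 0.067 (PSENEN in Oligo-like nuclei). Of those 4, APH1B in Pyra-like nuclei passed the filter on low counts through its ALP libraries alone. In the classes of those pairs, edgeR gave many genes an unadjusted p under 0.05. Their share of all genes tested was 21.7% in Oligo-like, 18.9% in InN-like, 16.5% in Astro-like and 9.68% in Pyra-like nuclei. DESeq2 also called no member. In the unnamed low-depth nuclei, left out of these counts, the log2 fold change was 1.18 for PSENEN (SE 0.43, adjusted p = 0.254 in edgeR). For ADAM10 it was -0.85 there (SE 0.35, adjusted p = 0.299 in edgeR). Among all genes, the called share was 4.76% in Oligo-like, 1.34% in OPC-like, 1.18% in Gran-like, 0.434% in InN-like, 0.13% in Micro-like, 0.124% in Astro-like and 0.0127% in Pyra-like nuclei. It was 0.0% in Endo-like, Ependymal-like, ExN-like and Mural-like nuclei, where edgeR called no gene at all, with 80, 67, 1070 and 17 genes at an unadjusted p under 0.05 and 1, 0, 51 and 0 genes called by DESeq2. The comparison therefore had little reach in the vascular and ependymal classes, where only APP, or APP and ADAM10, could be tested.

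No difference in APP passed the test in any class. Its log2 fold change was positive in 7 of 11 classes, with a median of 0.04, and ran from -0.26 in Endo-like (SE 0.31) to 0.23 in InN-like nuclei (SE 0.12), with a lowest adjusted p of 0.336 in edgeR. These fold changes use edgeR's own scaling between libraries (TMM), so they can differ in size and sign from the CPM means. In Astro-like nuclei APP stood at 197 ± 13.2 CPM in controls and 189 ± 36.7 in ALP TSs (SD, n = 3 each). The log2 fold change there was 0.08 (SE 0.18). The InN-like values were 515, 487 and 450 CPM in controls and 471, 583 and 477 CPM in ALP TSs, which overlap. In Pyra-like nuclei the control values of APP (402, 478 and 425 CPM) were all above the ALP values (343, 374 and 256 CPM), with a log2 fold change of -0.21 (SE 0.21, adjusted p = 0.815 in edgeR). Groups that do not overlap, in either direction, were frequent there, at 17.0% of the 7868 genes tested in Pyra-like nuclei. The share lower in ALP TSs was 12.5%. In Pyra-like nuclei the controls also had fewer nuclei (121, 35 and 22 against 325, 220 and 296) and a lower median depth (2684.0 to 4190.0 against 5122.5 to 6142.5 UMIs per nucleus), whose part was not tested. In Oligo-like nuclei, where APP was highest, the log2 fold change was -0.10 (SE 0.20), and its mean lay between 724 and 853 CPM in each of the 5 Oligo-like clusters.

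ADAM10 was tested in 9 classes. Its log2 fold change ranged from -0.37 in Micro-like nuclei (SE 0.27, adjusted p = 0.572 in edgeR) to 0.37 in Astro-like nuclei (SE 0.18, adjusted p = 0.322). Within Micro-like cluster 9 the means were 636 ± 219 CPM in controls and 581 ± 114 in ALP TSs, and within cluster 25, the cluster with less ADAM10 and a larger share in ALP TSs, they were 228 ± 45 and 228 ± 14.9 CPM (SD, n = 3 each). In Astro-like nuclei controls stood at 195, 146 and 140 CPM and ALP TSs at 180, 187 and 192 CPM, so control 1 lay above every ALP library. In Pyra-like nuclei the 3 control values (123, 82.2 and 75.8 CPM) were again above the 3 ALP values (68.9, 69.6 and 73.6 CPM), with a log2 fold change of -0.32 (SE 0.26, adjusted p = 0.748 in edgeR). In that class groups did not overlap, in either direction, for 17.0% of the genes tested, with 12.5% lower in ALP TSs. BACE1 could be tested in Oligo-like, InN-like and Gran-like nuclei, with log2 fold changes from -0.18 in Oligo-like (SE 0.23) to 0.53 in Gran-like nuclei (SE 0.47) and a lowest adjusted p of 0.618 in edgeR. BACE2 could be tested in OPC-like (0.22, SE 0.34) and Astro-like nuclei (0.56, SE 0.32, adjusted p = 0.4 in edgeR).

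Among the gamma-secretase subunits, PSENEN was tested in 7 classes. In Oligo-like nuclei it stood at 17.2, 6.64 and 11.8 CPM in controls and at 29.2, 20.6 and 34.7 CPM in ALP TSs. All ALP values were above all control values. Groups did not overlap, in either direction, for 22.7% of the genes tested in this class, with 9.82% higher in ALP TSs. The log2 fold change was 1.14 (SE 0.32, unadjusted p = 0.00445, adjusted p = 0.067 in edgeR). Control 2 contributed 2 of these UMIs.

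In Astro-like nuclei PSENEN was at 21.2, 21.5 and 10.1 CPM in controls and at 29.6, 28.0 and 36.7 CPM in ALP TSs, again without overlap. Groups there did not overlap, in either direction, for 21.6% of the genes tested, with 6.61% higher in ALP TSs. The log2 fold change of PSENEN was 1.04 (SE 0.35, adjusted p = 0.165 in edgeR). The values for PSENEN were 1.42 in ExN-like (SE 0.74), 0.91 in InN-like (SE 0.47) and 0.14 in Pyra-like nuclei (SE 0.60), the highest and lowest being ExN-like and Pyra-like. By cluster the direction was mixed where few nuclei of a group were left. Within Oligo-like cluster 8 the mean was 13.9 ± 2.54 CPM in controls and 29.9 ± 10.2 in ALP TSs, and within cluster 3 it was 11.2 ± 12.6 and 29.4 ± 7.89 CPM (SD, n = 3 each). Cluster 7 was also higher in ALP TSs on average (12.6 ± 12.7 and 35.5 ± 44.2 CPM), as was cluster 5, where the 67 control nuclei had no PSENEN UMI. Cluster 1 went the other way, at 10.1 ± 8.87 CPM in controls and with no PSENEN UMI in the 172 ALP nuclei. Among Astro-like nuclei the mean was higher in ALP TSs in cluster 4 (18.4 ± 7.12 and 31.5 ± 2.92 CPM) and cluster 10 (10.1 ± 3.31 and 32.0 ± 9.76 CPM), but lower in cluster 37 (108 ± 59.7 and 20.2 ± 34.9 CPM), which held 56 nuclei and 10 PSENEN UMIs. Endothelial markers, from the class highest in PSENEN, summed in Oligo-like nuclei to 41.6 to 58.6 CPM in controls and 30.5 to 43.1 CPM in ALP TSs. Their part in the PSENEN values was not tested. Transcripts of 38 ribosomal protein genes summed to 812 ± 56.6 CPM in control and 860 ± 60.7 in ALP Oligo-like nuclei. The median log2 fold change of the 15 that were tested was 0.10, and their relation to PSENEN was not tested. Median depth of Oligo-like nuclei was 1417.0 to 1676.0 UMIs in controls and 1171.0 to 1323.0 in ALP TSs, whose part was not tested.

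APH1B was higher without overlap in 3 neuronal classes. In Pyra-like nuclei it stood at 2.28, 7.47 and 0 CPM in controls (1, 1 and 0 UMIs) and at 14.9, 14.1 and 16.6 CPM in ALP TSs (69 UMIs). The gene passed the filter there through the ALP libraries alone, so these values are a description and no fold is read from the 2 control UMIs. In InN-like nuclei it was at 10.5, 12.4 and 12.2 CPM in controls and at 22.4, 15.6 and 13.0 CPM in ALP TSs (log2 fold change 0.71, SE 0.31, adjusted p = 0.246 in edgeR). In Gran-like nuclei it was at 11.3, 12.8 and 19.2 CPM and at 20.9, 20.4 and 24.2 CPM (0.70, SE 0.33, adjusted p = 0.302 in edgeR). Of all genes tested, 24.7% in InN-like, 20.8% in Gran-like and 17.0% in Pyra-like nuclei had groups that did not overlap in either direction. The shares that were higher in ALP TSs were 5.87%, 8.05% and 4.55%. In OPC-like nuclei, where APH1B was firmly detected, the log2 fold change was -0.35 (SE 0.30).

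**Figure D3:**
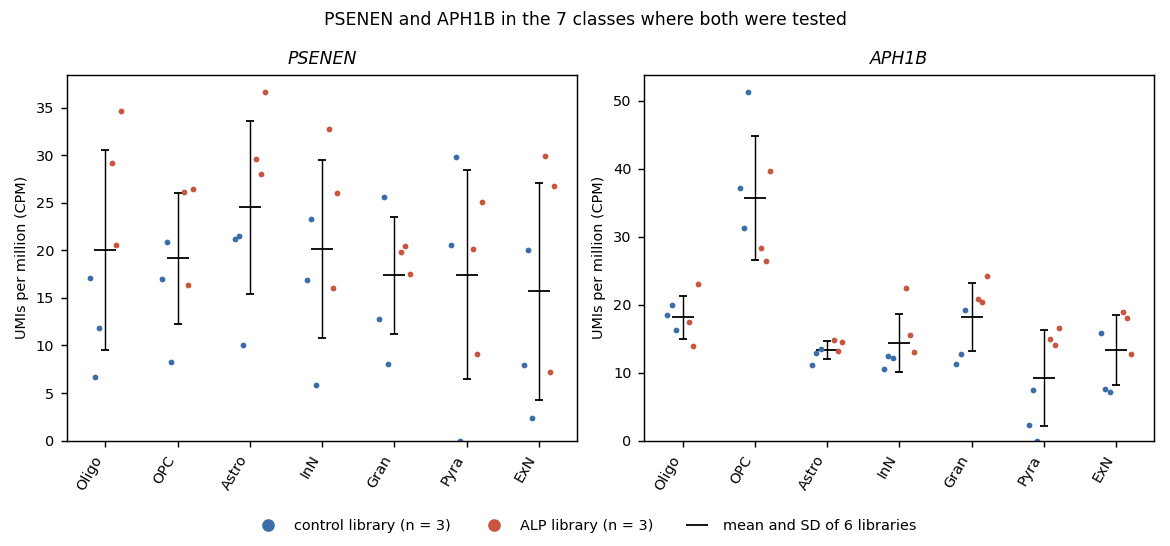
Levels of PSENEN and APH1B (CPM, linear axes) in the 7 classes where both were tested, with a point for each control and ALP library and a bar for the mean and SD of all 6. The ALP points of PSENEN lie above all control points in Oligo and Astro nuclei, and those of APH1B do so in InN, Gran and Pyra nuclei, although no difference passed the adjusted test.

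APH1A and NCSTN were tested in 4 and 3 classes. APH1A in Oligo-like nuclei was at 8.18, 6.64 and 7.37 CPM in controls and at 13.7, 9.57 and 10.2 CPM in ALP TSs, with no overlap (log2 fold change 0.62, SE 0.35, adjusted p = 0.33 in edgeR). In this class groups did not overlap, in either direction, for 22.7% of the genes tested, with 9.82% higher in ALP TSs. The log2 fold change of APH1A ranged from 0.06 in Astro-like to 1.01 in Gran-like nuclei (SE 0.33 and 0.48). That of NCSTN ranged from 0.03 in InN-like to 0.76 in Gran-like nuclei (SE 0.39 and 0.49). PSEN2 was tested in InN-like nuclei (-0.13, SE 0.39, adjusted p = 0.897 in edgeR).

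**Figure D4:**
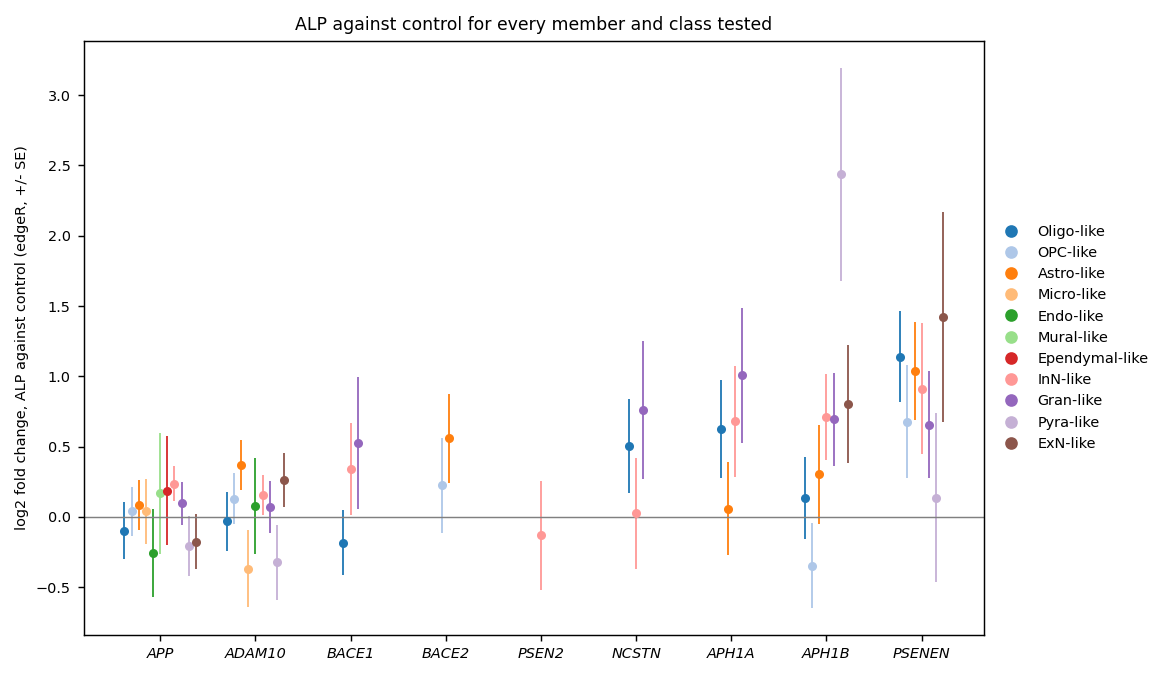
Log2 fold change of ALP against control (edgeR, bars for the SE) for the 47 tested pairs of a member and a class, colored by class, with 0 marked by a line. APP values lie between -0.26 and 0.23, and PSENEN values between 0.14 and 1.42. The highest point, APH1B in Pyra nuclei, rests on 2 control UMIs.

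Whether the ALP effect differed between classes was tested directly, with the group by class terms in a single edgeR fit. No member passed, while 82 of 13751 genes (0.596%) did. The adjusted p was 0.104 for BACE2, 0.211 for APH1B, 0.249 for BACE1, 0.275 for ADAM10, 0.803 for NCSTN, 0.812 for APH1A, 0.853 for PSENEN and 0.868 for APP. The unadjusted p was under 0.05 for 4 of the 8 members tested, and for 1522 of the 13751 genes.

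With all kept nuclei of a library summed, edgeR called no gene at all (0.0% of 22749), although 5323 had an unadjusted p under 0.05 and DESeq2 called 1740 genes, none of them a member. BACE2 was at 9.41, 12.7 and 9.49 CPM in controls and at 4.71, 7.87 and 5.38 CPM in ALP TSs, with no overlap (log2 fold change -0.59, SE 0.28, adjusted p = 0.238 in edgeR). Groups did not overlap, in either direction, for 27.9% of all genes in this sum, with 22.4% lower in ALP TSs. The sum moves with the makeup of a library too. Endo-like nuclei, the class richest in BACE2, made up 2.22% ± 0.761 of control and 0.812% ± 0.193 of ALP nuclei (SD, n = 3). They carried 13.9% ± 4.64 of control and 6.33% ± 3.72 of ALP BACE2 UMIs, so most BACE2 UMIs lay in other classes. BACE2 was also lower in ALP TSs without overlap in ExN-like (31 and 13 UMIs), Gran-like (12 and 5) and InN-like nuclei (8 and 1). It was untested there, and 20.1%, 20.8% and 24.7% of the genes tested did not overlap in either direction (14.9%, 12.7% and 18.8% lower in ALP TSs). Groups overlapped in the other named classes. Oligo-like nuclei, poor in BACE2, made up 24.2% ± 11.8 of control and 33.6% ± 5.08 of ALP nuclei. The part of each in the sum was not tested. In these sums fewer cells of a type and less RNA per cell cannot be told apart. For PSENEN this sum gave a log2 fold change of 0.82 (SE 0.34, unadjusted p = 0.0376, adjusted p = 0.186 in edgeR), at 17.5, 24.0 and 10.0 CPM in controls and at 28.0, 19 and 30.2 CPM in ALP TSs. Control 2 lay above ALP 2.

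The ratio of ADAM10 to BACE1 UMIs sets the alpha-secretase against the beta-secretase within a library, so it does not depend on scaling between libraries. A count of 0.5 was added to both. As log2 ratios it was lowest in Oligo-like nuclei (2.53 ± 0.30, n = 6) and stood at 6.15 ± 1.75 in Micro-like nuclei, where 2 control libraries had no BACE1 UMI and the added 0.5 sets their values. In ALP TSs the mean was 5.73 in Astro-like and 5.30 in Micro-like nuclei. In Astro-like nuclei it was 4.08, 4.22 and 4.19 in controls and 5.83, 6.1 and 5.27 in ALP TSs, a difference of 1.57 in the means with no overlap. BACE1 gave 28 control and 8 ALP UMIs there. By cluster, BACE1 stood at 11.5 ± 3.59 CPM in controls and 1.5 ± 2.6 in ALP TSs in cluster 4, which held more of the ALP nuclei, but at 3.54 ± 3.08 and 5.88 ± 2.00 CPM in cluster 10. In ExN-like nuclei the log2 ratio was 3.30, 3.64 and 3.06 in controls and 3.72, 4.37 and 4.03 in ALP TSs, a difference of 0.71 that turned to -0.37 with no upper limit on genes. The ExN-like difference had an exact permutation p = 0.1, two-sided, and an adjusted exact p = 0.4 over 8 classes. That p is the smallest that 3 against 3 libraries allow, so the test could call no difference in any class. In Astro-like and ExN-like nuclei BACE1 was under edgeR's filter on low counts. In Astro-like nuclei BACE1 reached the 10 UMIs needed for the ratio through controls, so no p is read from that class. The ratios of both classes are a description. Among levels of single genes, groups did not overlap for 21.6% of the genes tested in Astro-like and 20.1% in ExN-like nuclei. The Oligo-like difference was 0.21 (exact permutation p = 0.7).

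**Figure D5:**
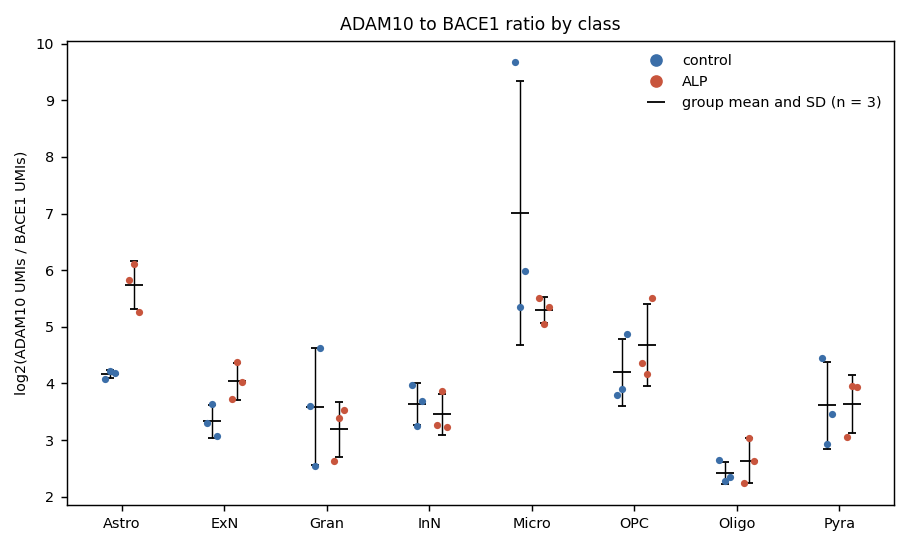
Log2 ratio of ADAM10 to BACE1 UMIs in the 8 classes with at least 10 UMIs of both genes, with a point per library and bars for the mean and SD of each group (n = 3). ALP points lie above control points in Astro and ExN nuclei (differences of 1.57 and 0.71, that of ExN turning to -0.37 with no upper limit on genes). Among levels of single genes, groups did not overlap for 21.6% of the genes tested in Astro and 20.1% in ExN nuclei. The control points of Micro nuclei spread widely, 2 of those libraries holding no BACE1 UMI.

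Genes that work with the secretases were described from 8 lists of 45 genes, 43 of which were present in the features. Over 250 tested pairs of a gene and a class, edgeR called 4 higher in ALP TSs and none lower, all in the list of gamma-secretase partners (4 of 20 pairs, median log2 fold change 0.53). Over all genes and classes 873 of 77194 pairs were called, with a median log2 fold change of 0.01, and 2 of the 4 calls fell in Oligo-like nuclei, where 4.76% of all genes were called. BSG (basigin), a membrane glycoprotein that escorts lactate transporters and has been found with gamma-secretase, rose in Oligo-like, OPC-like and Gran-like nuclei. In Oligo-like nuclei it went from 126 ± 31.3 to 340 ± 33.1 CPM (SD, n = 3 each), and the fitted log2 fold change was 1.56 (SE 0.22, adjusted p = 0.0108 in edgeR). It rose from 82.3 ± 20.2 to 178 ± 20 CPM in OPC-like (log2 fold change 1.12, adjusted p = 0.0372 in edgeR) and from 42.1 ± 3.22 to 82.4 ± 15 CPM in Gran-like nuclei (1.02, adjusted p = 0.0461 in edgeR). BSG was highest by far in Endo-like nuclei, at 4040 ± 1086 CPM. Endothelial markers in OPC-like nuclei summed to 33.9 to 64 CPM in controls and to 21.8 to 49.6 CPM in ALP TSs. In Gran-like nuclei they summed to 38.4 to 53.8 and 34.8 to 40.3 CPM, and their part in the BSG values was not tested. Oligodendrocyte markers in Gran-like nuclei summed to 222 to 578 CPM in controls and to 655 to 861 CPM in ALP TSs, with 1 of 3 tested markers called higher, and their part in the Gran-like value was not tested. TMED10, a cargo receptor of the early secretory pathway that can bind gamma-secretase, rose in Oligo-like nuclei from 64.1 ± 6.39 to 108 ± 12.7 CPM (log2 fold change 0.87, SE 0.19, adjusted p = 0.0259 in edgeR). Oligo-like nuclei of the groups lay mostly in different clusters. Clusters 1 and 7 held 54.5% and 30.9% of control but 3.71% and 2.68% of ALP nuclei. BSG and TMED10 were not compared within clusters, so a change within a cluster and a different mix of clusters cannot be told apart. All 4 calls were lost without ALP 1 (log2 fold changes 1.61, 1.05, 1.17 and 0.97 in the order given) and without ALP 3 (1.49, 1.15, 0.89 and 0.79). Without control 3, BSG in OPC-like nuclei kept its call and the others lost it (1.60 and 1.03 for BSG in Oligo-like and Gran-like nuclei, 0.76 for TMED10). Without control 1, BSG in Gran-like nuclei (1.03) and TMED10 (0.92) lost theirs, and BSG in Gran-like nuclei did so without ALP 2 too (1.01). With the replicate number as a block, BSG in OPC-like (1.16) and Gran-like nuclei (0.99) and TMED10 (0.85) lost their calls. Over 13 alternatives BSG was called in 10 in Oligo-like, 10 in OPC-like and 5 in Gran-like nuclei, and TMED10 in 8.

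No gene was called in the other 7 lists. Median log2 fold changes were 0.16 for the APP family (8 pairs, all of APLP2), 0.01 for other APP sheddases (16 pairs), 0.05 for the tetraspanins that carry ADAM10 (25 pairs) and 0.13 for APP adaptors (45 pairs). They were -0.03 for sorting of APP and BACE1 (52 pairs), 0.02 for amyloid-beta degradation and clearance (29 pairs) and -0.11 for other substrates (55 pairs). The nearest to a call was VPS35, the core of the retromer that returns APP and BACE1 from endosomes, with a log2 fold change of 1.06 in Oligo-like (SE 0.29, adjusted p = 0.0577 in edgeR) and 1.26 in OPC-like nuclei (SE 0.32, adjusted p = 0.0722), named after its values were seen.

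By level, several of these genes shared a peak with a member. SORT1, a sorting receptor, was highest in Oligo-like nuclei (424 ± 81.8 CPM), like APP and BACE1. SORL1, which returns APP to the Golgi, was highest in Micro-like nuclei (315 ± 165 CPM), like ADAM10. TSPAN5, a carrier of ADAM10, was highest in Endo-like nuclei (317 ± 49.6 CPM), and TSPAN15, another carrier, was at 104 ± 23.8 CPM in OPC-like and 101 ± 16.0 CPM in Oligo-like nuclei but at 3.68 ± 2.92 CPM in Pyra-like nuclei. The BACE1 substrate CHL1 was highest in OPC-like nuclei (989 ± 149 CPM) and lowest in Oligo-like nuclei (49.1 ± 32.0 CPM), where BACE1 was highest. These 5 genes were picked after their values were seen.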

How the data were processed

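Nuclei of 6 hippocampus libraries were profiled with droplet 3' snRNA-seq. The authors deposited whole UMI counts per feature and barcode, made with Cell Ranger (3.1.0 in the submitters' processing notes, 6.1.2 in the matrix headers) on a tree shrew annotation, whose build is not given in the sources used here. No sample was pooled and no normalization had been applied.

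Barcodes with more than 200 and fewer than 2500 genes and under 5% mitochondrial UMIs were kept. Clustering (Python 3.11.15, leidenalg 0.10.2, resolution 2, 2000 variable genes, 30 components) left out 24 features that are members or named after one. A class name needed 3 listed markers, and clusters with over 15% marked doublets stayed unnamed. Counts were summed per library and class and tested with edgeR 4.0.16 (TMM, quasi-likelihood, filter on low counts at 10), after a test on simulated data. DESeq2 1.42.0, upper-quartile scaling, no filter, no upper limit on genes, doublets left out, resolution 1, a replicate block and leaving out each library were alternatives. All members were named, and fold changes were given for tested pairs with an unadjusted p under 0.05 or no overlap between groups and for the highest and lowest of each member. Other genes came from 8 lists. Kept nuclei had a median of 1502.5 to 2187.5 UMIs per library, and counting error limits every sparse gene. The members and gene lists were chosen with earlier results of these data known.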

Additional observations from a re-analysis of the deposited data

Results flagged for a closer look

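BACE1 and NCSTN each had a class in which every ALP library was below every control library and another in which every ALP library was above. For BACE1 the mean changed by -5.58 CPM in Astro-like nuclei (28 control and 8 ALP UMIs) and by 6.66 CPM in Micro-like nuclei (2 and 9 UMIs). For NCSTN it changed by -3.82 CPM in ExN-like nuclei (19 and 15 UMIs) and by 8.44 CPM in OPC-like nuclei (20 and 26 UMIs). Groups did not overlap, in either direction, for 21.6% of all tested genes in Astro-like, 14.9% in Micro-like, 20.1% in ExN-like and 18.1% in OPC-like nuclei. None of the 4 pairs of a member and a class passed the filter on low counts, so none was tested. The differences between these pairs of classes were not tested. The edgeR test of the group by class terms over all classes gave adjusted p = 0.249 for BACE1 and 0.803 for NCSTN.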

How the results depend on the processing

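No member was called per class except PSENEN in Oligo-like nuclei, giving 1 call without the filter on low counts and 0 to 1 calls when a library was left out (1 without ALP 2). In the sum of all nuclei 1 call came without the filter and 0 when a library was left out. Class contrasts called higher ranged from 18 to 21 and lower from 13 to 16 when a library was left out, and 24 of 37 calls held in all alternatives. The log2 ratio of ADAM10 to BACE1 turned to -0.374 in ExN-like and to 0.0928 in Gran-like nuclei with no upper limit on genes, and to -0.441 in Pyra-like nuclei at resolution 1. With a library left out it ran from 1.39 to 1.81 in Astro-like, 0.542 to 0.867 in ExN-like, -0.924 to 0.115 in Gran-like, -0.391 to -0.00994 in InN-like, -2.53 to -0.373 in Micro-like, 0.0693 to 0.825 in OPC-like, 0.0151 to 0.407 in Oligo-like and -0.308 to 0.445 in Pyra-like nuclei. Uncalled fold changes turned for APP in Pyra-like nuclei (0.12 without the filter), ADAM10 there (0.0346 with no limit on genes, -0.409 to 0.141 with a library left out), PSEN2 in InN-like (-0.427 to 0.105), NCSTN in InN-like (-0.0012 with doublets left out, -0.171 to 0.343 without a library), APH1A in Astro-like (-0.00163 to 0.112) and PSENEN in Pyra-like nuclei (-0.0518 to 0.431). The cause was not tested. Deviations of same-numbered control and ALP libraries correlated at -0.113, -0.0566 and -0.0859, and those of differently numbered ones at 0.0225 to 0.0576. Whether the number marks a shared batch or pair cannot be told from these values. With the replicate block 0 members were called, and calls over all genes and classes went from 873 to 265. They were 1459 by DESeq2, 5315 without the filter, 8 without ALP 1, 5 without ALP 3, 49 without control 3 and 2688 without control 2.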

Other observations

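Some features are named as antisense to a member, and since use of strand in the counting is not stated, their UMIs cannot be told apart from those of the sense gene. APP-AS-3 stood at 1.49, 2.88 and 3.64 CPM in controls and at 1.18, 0.837 and 0.48 CPM in ALP TSs over all nuclei, without overlap (log2 fold change -1.45, adjusted p = 0.131 in edgeR). APP-AS-2 in Oligo-like nuclei was at 9.50, 6.64 and 10.3 CPM in controls and at 6.22, 2.87 and 1.33 CPM in ALP TSs, again without overlap (-1.42, adjusted p = 0.133 in edgeR). For APP itself the Oligo-like log2 fold change was -0.10. Groups did not overlap, in either direction, for 27.9% of all genes over all nuclei and for 22.7% in Oligo-like nuclei. The shares lower in ALP TSs were 22.4% and 12.9%. BACE2-AS-1 had a log2 fold change of -1.05 over all nuclei (adjusted p = 0.24 in edgeR).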
